A study of Mus musculus with 36 samples.

Results

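Soleus, the slow muscle of the mouse hindlimb, was compared with 3 fast limb muscles of normal mice on Affymetrix MG_U74Av2 arrays, which report a signal intensity for each probe set. The comparison holds 8 of the 36 samples of the series and was chosen by the strain and muscle named in the sample titles: 2 samples of C57BL10 soleus were set against the mean of the group means of C57BL10 EDL (extensor digitorum longus), gastrocnemius and quadriceps, with 2 samples each. C57BL10 is the normal strain of the study. The other samples are diaphragm and TA (tibialis anterior) of C57BL10 and all 6 muscles of mdx and mdx5cv, which each carry a mutation in the dystrophin gene Dmd, and their soleus, gastrocnemius and quadriceps arrays serve for a second contrast of the same kind. Diaphragm and TA are in no contrast, because earlier results of these data showed liver transcripts in them and 1 TA array that stood apart. All 34 distinct arrays of the series, these included, entered the limma fit and the filter on low signals, so the spread behind every p-value comes from all of them. All mice were male and 8 weeks old, and each sample pools RNA of 5 mice, so that the spread between single animals cannot be seen. The labels do not state whether both samples of a muscle were separate pools or whether several muscles came from the same mice, and p-values therefore measure only the spread between these samples.

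Skeletal muscle fibres are slow or fast according to the myosin heavy chain they carry, and each class builds its filaments from its own versions of myosin light chains, troponins and tropomyosin. Slow fibres contract weakly for long periods, are rich in mitochondria and burn fat, whereas fast fibres contract quickly, break down glycogen and tire. In the mouse the soleus holds many slow and fast oxidative fibres, the EDL is almost wholly fast, and gastrocnemius and quadriceps are mostly fast with slow fibres in their deep parts. The arrays measure RNA of the whole muscle, in which fewer cells of a type and less RNA per cell cannot be told apart.

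Array quality was even across the 4 muscles, with medians between 458 and 565 and a Spearman correlation across probe sets (median over the other arrays of the series) of 0.905 to 0.924. The ratio of 3' to 5' signal, a measure of RNA integrity, was 0.801 and 0.763 on actin in soleus against 0.626 to 0.924 in the fast muscles. On Gapdh it was 0.828 and 1.15 in soleus against 0.869 to 1.76, so that soleus sample 1 lay below all fast arrays. Each of the 4 muscles had 1 array scanned in the first and 1 in the third of 4 scanning periods, so that period and muscle were balanced. Chip lot was not balanced. The EDL arrays came from lots 1004404 and 2002016, and those of the other muscles from lots 1004210 and 1008366. Lot and muscle therefore cannot be told apart in any comparison with EDL alone. Among the 8 arrays, EDL sample 2 and quadriceps sample 2 were each run with a protocol of their own. Dmd, the gene mutated in the other strains, had signals of 751 and 990.4 in soleus and from 459 to 1928 in the fast muscles, which overlap, with a difference of 0.32 ± 0.49 (limma adjusted p = 0.94). Differences are given throughout as soleus minus the fast mean on the log2 scale with the limma standard error, signals under 118.4 were set to that floor, and a gene is called higher or lower in soleus only where the adjusted p was under 0.05. Of 7453 probe sets tested 182 passed (2.44%), 88 of them higher in soleus (1.18%) and 94 lower (1.26%), and they stand for 157 named genes. In 180 of the 182 the soleus arrays did not overlap the 6 fast arrays, which was so for 17.2% of all probe sets tested (8.99% with soleus above and 8.24% with soleus below). The count was 79 without soleus sample 1 and 75 without soleus sample 2, and 56 probe sets passed in every fit with 1 of the 8 arrays left out. With the 8 arrays fitted alone it was 280, and without C57BL10 TA sample 2 and mdx5cv quadriceps sample 2, the arrays that correlate least with the rest of the series, it was 350.

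Slow forms of the contractile proteins showed the largest differences of the comparison. Of 16 genes in the slow contractile list 12 were tested, 9 were higher in soleus and 1 was lower, and the median difference was 3.68 against 0.03 over all tested genes. The thin filament switch was higher in all of its slow parts measured. Tnnc1 (probe set 101063_at), the slow and cardiac troponin C that binds calcium, had signals of 65105 and 78041 in soleus, 701 and 1080.3 in EDL, 6824 and 5538 in gastrocnemius and 6269 and 8091 in quadriceps. Both soleus arrays lay far above the other 6, and the EDL arrays were the lowest of all. The difference was 4.40 ± 0.45 (limma adjusted p = 6.7e-07), a ratio of 21.2. Tnni1 (98561_at), the slow troponin I that holds the filament off, had signals of 94213 and 107887 in soleus, 1902 and 2063 in EDL, 7878 and 8659.5 in gastrocnemius and 7343 and 10076 in quadriceps. The order of the muscles was the same, with soleus highest and EDL lowest, and the difference was 4.28 ± 0.27 (adjusted p = 1.5e-10). Tnnt1 (161361_s_at), the slow troponin T that ties the complex to tropomyosin, had signals of 120280.0 and 153285 in soleus, 2559 and 2269 in EDL, 16674 and 20914 in gastrocnemius and 20778 and 19541 in quadriceps, with a difference of 3.81 ± 0.36 (adjusted p = 1.7e-07). A second probe set of Tnnt1 had signals of 21963 and 29605 in soleus and 885 to 2602 in the fast muscles (adjusted p = 3.2e-09). Tpm3, the slow tropomyosin, had signals of 78121 and 105533 in soleus against 2829.9 to 13537 in the fast muscles (3.56 ± 0.28, adjusted p = 4.7e-09). These 4 genes passed with any of the 8 arrays left out.

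The promoters of the 3 slow troponin genes are printed beside that of Mstn, one of the lowest genes in soleus (its signals are given with the regulators), because the 4 genes lie at both ends of the comparison. The windows are from RefSeq (GRCm38.p6) and run from 250 bases before to 50 bases after the annotated start, 5′ to 3′ on the strand of the gene: Tnnc1 at chr14:31208062-31208361 on the plus strand, the first of 2 overlapping windows of Tnni1 at chr1:135799171-135799470 on the plus strand, Tnnt1 at chr7:4515926-4516225 on the minus strand and Mstn at chr1:53061390-53061689 on the plus strand. Capitals mark matches on either strand to 4 motifs of muscle promoters: the E-box CANNTG, the CACC box CCACCC, the M-CAT motif CATTCC and the MEF2 site.
Tnnc1: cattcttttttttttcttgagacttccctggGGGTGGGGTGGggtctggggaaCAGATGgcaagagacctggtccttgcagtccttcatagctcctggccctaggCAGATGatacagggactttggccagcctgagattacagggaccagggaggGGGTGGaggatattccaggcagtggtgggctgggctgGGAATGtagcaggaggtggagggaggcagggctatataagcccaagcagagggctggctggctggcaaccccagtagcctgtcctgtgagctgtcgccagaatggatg
Tnni1: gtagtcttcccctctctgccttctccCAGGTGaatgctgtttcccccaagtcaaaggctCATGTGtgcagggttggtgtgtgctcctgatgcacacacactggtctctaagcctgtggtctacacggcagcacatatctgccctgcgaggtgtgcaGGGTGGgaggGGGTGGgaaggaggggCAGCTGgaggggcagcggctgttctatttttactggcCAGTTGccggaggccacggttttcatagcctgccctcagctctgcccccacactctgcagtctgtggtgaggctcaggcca
Tnnt1: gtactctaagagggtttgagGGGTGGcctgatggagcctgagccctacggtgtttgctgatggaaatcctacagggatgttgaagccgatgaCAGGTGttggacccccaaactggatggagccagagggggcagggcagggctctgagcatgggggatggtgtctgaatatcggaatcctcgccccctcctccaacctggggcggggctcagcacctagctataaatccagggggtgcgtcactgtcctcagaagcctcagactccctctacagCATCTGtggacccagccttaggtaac
Mstn: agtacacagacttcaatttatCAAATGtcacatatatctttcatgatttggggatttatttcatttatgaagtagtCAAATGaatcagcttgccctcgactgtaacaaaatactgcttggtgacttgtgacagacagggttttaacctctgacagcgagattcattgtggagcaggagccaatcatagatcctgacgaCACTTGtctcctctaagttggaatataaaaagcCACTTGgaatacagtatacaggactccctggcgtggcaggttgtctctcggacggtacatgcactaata
The Tnnc1 window holds 3 CACC boxes, of which a pair shares 1 base, with 2 E-boxes and 1 M-CAT motif. That of Tnni1 holds 2 CACC boxes and 4 E-boxes, and that of Tnnt1 holds 1 CACC box and 2 E-boxes. The Mstn window holds 4 E-boxes and none of the other 3 motifs. A CACC box stood in 11 of the 14 windows of the tested slow contractile genes (78.6%), in 4 of the 10 windows of the tested fast contractile genes and in 31.5% of all 32851 windows of the table. An E-box stood in all 14, in 8 of 10 and in 72.3% in the same order, an M-CAT motif in 3, in 4 and in 14.7%, and a MEF2 site in 1, in 3 and in 3.19%. The windows cover 10 of the 12 tested slow genes, without Atp2a2 and Sln, and 9 of the 13 tested fast genes, without Actn3, Myoz1, Tnni2 and Tnnt3. Several genes have more than 1 window, some of them overlapping, and a match describes the letters of the window only.

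The slow thick filament showed the same order of muscles. Myh7 (98616_f_at), the slow myosin heavy chain, had signals of 86377 and 134757 in soleus, 1827 and 2199.7 in EDL, 15123 and 15256 in gastrocnemius and 13914 and 16619 in quadriceps, with a difference of 3.80 ± 0.28 (adjusted p = 2.5e-09). Its probe set belongs to a class that can also bind transcripts of the same gene family. Myl3, the slow essential light chain shared with the heart ventricle, had signals of 86098 and 128507 in soleus, 1193 and 1248 in EDL, 19169 and 18121 in gastrocnemius and 15542 and 23097 in quadriceps (3.80 ± 0.41, adjusted p = 1.4e-06). Myl2, the slow regulatory light chain, had signals of 78034 and 129691 in soleus against 5677 to 27482 in the fast muscles (2.61 ± 0.43, adjusted p = 0.00039, and 0.058 without soleus sample 2). Groups did not overlap in any of these 3 genes. A pair of calcium proteins of slow fibres were also higher. Atp2a2, the slow and cardiac calcium pump of the sarcoplasmic reticulum, had signals of 49775 and 69332 in soleus, 782 and 689 in EDL, 5622 and 5749.9 in gastrocnemius and 6784 and 6897 in quadriceps (4.26 ± 0.26, adjusted p = 1.3e-10). Casq2, the cardiac calsequestrin that stores calcium inside the reticulum, had signals of 1639.8 and 1912 in soleus and 318 to 750.0 in the fast muscles (1.77 ± 0.48, adjusted p = 0.048). That call held without EDL sample 2 and was lost when any other of the 8 arrays was left out (adjusted p from 0.065 to 0.47).

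The remaining tested members of the slow list did not follow. Actc1 (101029_f_at), the cardiac actin that is also made in developing and regenerating muscle, was lower in soleus, with signals of 12088 and 13339 against 32185 and 28329 in EDL, 58777 and 41824 in gastrocnemius and 46686 and 65822 in quadriceps (-1.78 ± 0.39, adjusted p = 0.0087). The call was lost without soleus sample 1 (adjusted p = 0.18) or soleus sample 2 (0.14), and a second probe set, 101028_i_at, gave -3.15 ± 0.35 (adjusted p = 1.6e-06). Myl6b, a light chain of slow muscle, had signals of 2497 and 1221 in soleus, both above the fast range of 521 to 981, and did not pass (1.15 ± 0.47, adjusted p = 0.31). Sln, the gene of sarcolipin, which restrains the calcium pump, had overlapping signals of 606 and 591 in soleus and 312 to 773 in the fast muscles (0.21 ± 0.50, adjusted p = 0.97).

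**Figure D1:**
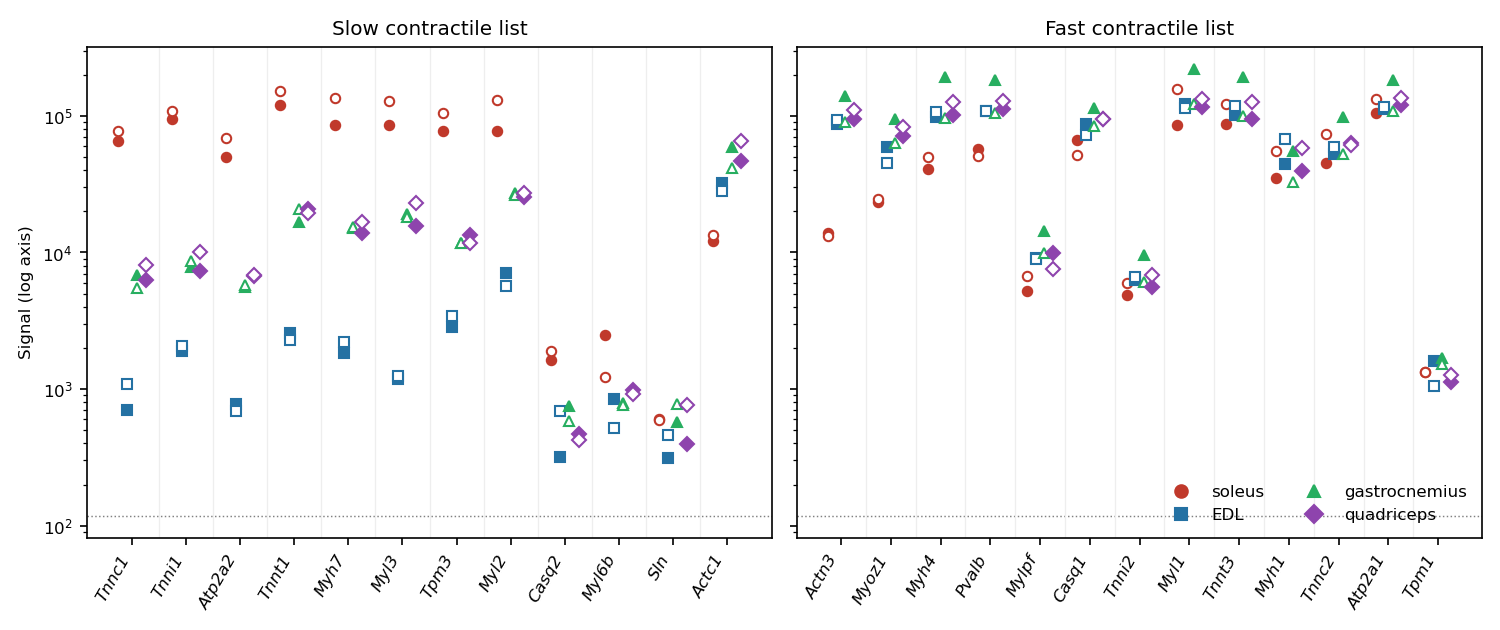
Signal (log axis) of the tested members of the slow and the fast contractile list in the 8 C57BL10 arrays, with filled symbols for sample 1, open symbols for sample 2 and a dotted line at the floor of 118.4. In 8 of the slow genes, Tnnc1 to Myl2, both soleus arrays are the highest and both EDL arrays the lowest, and the fast genes lie close together apart from a few, of which Actn3 is the most separated.

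The fast muscles were not alike in slow genes, and the EDL arrays also differed from the others in chip lot, which cannot be told apart from the muscle. The contrast of EDL with the mean of gastrocnemius and quadriceps was added after the data were seen, and 23 probe sets passed in it (0.309%), 4 higher in EDL (0.0537%) and 19 lower (0.255%). The count was 14 without EDL sample 1. The 8 slow genes from Tnnc1 to Myl2 were lower in EDL (EDL minus the mean of the other 2 muscles): Tnnc1 at -2.93 ± 0.48 (adjusted p = 0.0017), Tnni1 at -2.09 ± 0.28 (0.00013), Atp2a2 at -3.09 ± 0.27 (4.0e-07), Tnnt1 at -3.01 ± 0.38 (5.2e-05), Myh7 at -2.92 ± 0.29 (1.6e-06), Myl3 at -3.95 ± 0.43 (5.7e-06), Tpm3 at -1.97 ± 0.29 (0.00049) and Myl2 at -2.07 ± 0.45 (0.040). The difference from soleus was thus from 3.99 to 6.43 against EDL and from 1.90 to 3.61 against gastrocnemius. Against quadriceps it ran from 1.94 to 3.55.

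Fast forms of the contractile proteins had smaller values. All 13 tested members of the 17 in the list had a value below 0, while 52.9% of all probe sets tested had a value above 0. The median was -0.33, and 2 passed as lower in soleus, against 1.26% of all probe sets tested. Actn3, the fast α-actinin that anchors actin at the Z-disc, had signals of 13832 and 13179.9 in soleus, 87517 and 93260.4 in EDL, 139945 and 90982 in gastrocnemius and 95648 and 110872 in quadriceps. All 6 fast arrays lay far above both soleus arrays, with a difference of -2.91 ± 0.36 (adjusted p = 1.3e-05), and the second probe set gave -2.94 ± 0.33. Myoz1, which ties calcineurin to the Z-disc of fast fibres, had signals of 23506 and 24693 in soleus and 45138 to 95149 in the fast muscles (-1.49 ± 0.30, adjusted p = 0.0035, and 0.10 and 0.083 without soleus samples 1 and 2). Myh4, the heavy chain of the fastest fibres, had signals of 40627 and 49606 in soleus and 96463 to 192203 in the fast muscles without overlap, and missed the threshold (-1.37 ± 0.39, adjusted p = 0.063). Pvalb, the calcium buffer parvalbumin of fast fibres, had signals of 57304 and 50842 in soleus and 104937 to 183098 in the fast muscles, again without overlap (-1.17 ± 0.41, adjusted p = 0.16). Its second probe set, 96720_f_at, had signals of 5168 and 10175 in soleus and 37934 to 78200.0 in the fast muscles and passed (-2.77 ± 0.38, adjusted p = 4.7e-05). A second Myh4 probe set, 161545_r_at, disagreed with the first and had overlapping signals of 774 and 1087 in soleus and 456 to 906 in the fast muscles (0.53 ± 0.68, adjusted p = 0.93). When scanning period entered as a block, the first probe sets of Myh4 (adjusted p = 0.0074) and Pvalb (0.010) passed, which made 4 of 13. They also passed with the 8 arrays alone (0.040 and 0.047), and without the 2 low-correlation arrays Myh4 passed (0.038) and Pvalb did not (0.10). After quantile normalization Myh4 (adjusted p = 3.5e-08) and the first Pvalb probe set (adjusted p = 9.4e-07) passed as well, again 4 of 13. Mylpf, the fast regulatory light chain (-0.72 ± 0.33, adjusted p = 0.40), and Casq1, the fast calsequestrin (-0.63 ± 0.37, adjusted p = 0.65), were both below all fast arrays without passing. A second Mylpf probe set, 162101_f_at, was also below all fast arrays and did not pass (-1.21 ± 0.38, adjusted p = 0.10).

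For 7 fast genes the groups overlapped and none passed. Tnni2, the fast troponin I, had signals of 4859.9 and 5943 in soleus and 5616 to 9635 in the fast muscles (-0.33 ± 0.47, adjusted p = 0.94). The fast essential light chain Myl1 was at -0.21, the fast troponins Tnnt3 and Tnnc2 at -0.20 and -0.12, the tropomyosin Tpm1 at -0.01 and the fast calcium pump Atp2a1 at -0.11. Myh1, the heavy chain of fibres between the fast oxidative and the fastest, had signals of 35275 and 55641 in soleus and 32547 to 67335 in the fast muscles (-0.12 ± 0.39, adjusted p = 0.98). All of these but Tnni2 changed sign when a single array was left out. Gastrocnemius sample 1 was the highest array for each of the 7 but Myh1, as for Tnnt3 with 193442 against at most 127365 in the others. Myh2, the heavy chain of fast oxidative fibres, fell under the filter on low signals and was not tested.

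Among regulators of fibre type and muscle growth all calls were on the lower side. Of 25 tested, 5 were lower in soleus and none was higher by limma (1.26% and 1.18% of all probe sets tested). At an unadjusted p under 0.05 the counts were 6 and 3. After quantile normalization 3 were lower. Mstn (97155_at), the secreted growth factor myostatin that limits muscle mass, had signals of 361 and 674 in soleus, 4146 and 6105 in EDL, 8201 and 6137 in gastrocnemius and 4884 and 5985 in quadriceps. All 6 fast arrays lay far above both soleus arrays, the quadriceps arrays lay between the EDL arrays, and the gastrocnemius arrays were the highest. The difference was -3.55 ± 0.30 (adjusted p = 1.9e-08), a ratio of 11.7 of fast over soleus, and it passed with any array left out. Nr4a1, a nuclear receptor that raises glycolytic genes in muscle, had signals of 2062 and 2587 in soleus and 5657 to 8877 in the fast muscles (-1.72 ± 0.26, adjusted p = 0.00013), and passed with any array left out. Tbx15, a T-box factor of fast glycolytic fibres in mice, had signals of 2057 and 2922 in soleus and 4103 to 6775 in the fast muscles (-1.19 ± 0.22, adjusted p = 0.0022, and 0.19 without soleus sample 1). The other probe sets of Tbx15 gave -0.59 and -0.58, did not pass and overlapped between the groups. Sox6, a repressor of slow fibre genes, had signals of 528 and 161 in soleus, which did not overlap but nearly met the lowest fast array in a range of 536 to 1318 (-1.70 ± 0.42, adjusted p = 0.027). A second Sox6 probe set fell under the filter, with overlapping signals of 202 and 249 in soleus and 99.5 to 365 in the fast muscles. The first did not pass with the 8 arrays alone (adjusted p = 0.15) or after quantile normalization (0.19). Without soleus sample 2 its adjusted p was 0.90, and it also failed without EDL sample 1 (0.065), gastrocnemius sample 2 (0.080) or quadriceps sample 1 (0.074). Myod1, the myogenic factor that is richer in fast muscle, lay outside the rule for named genes and completes the 5, with signals of 1647 and 1309 in soleus and 2037 to 3654 in the fast muscles (-0.94 ± 0.25, adjusted p = 0.049, and from 0.061 to 0.63 with any array left out).

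Other regulators gave values without a call. Rxrg, a retinoid receptor, was below all fast arrays (-1.60 ± 0.53, adjusted p = 0.14), and Tead1, a factor that binds M-CAT motifs, was at 1.57 ± 0.65 (adjusted p = 0.32). Nfatc1, the calcineurin-driven factor of slow fibres, was at -0.02 ± 0.39, and Mef2c, a factor that binds MEF2 sites, at 0.45 ± 0.42. Ppargc1a, Ppard and Prox1, regulators of oxidative or slow fibres, fell under the filter and were not tested.

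Signalling genes and transcription factors outside that list were among the 12 lowest genes, each taken by its brightest probe set. Wnt4, a secreted Wnt ligand, had signals of 58.2 and 70.5 in soleus, under the floor in both arrays, against 1517 and 891 in EDL, 1220.4 and 1499 in gastrocnemius and 1130.4 and 1160.0 in quadriceps. It was at least 10.3-fold lower in soleus (adjusted p = 1.9e-05). Six2, a homeobox factor, had signals of 341 and 369 in soleus, 3028 and 2149 in EDL, 3979.5 and 5296 in gastrocnemius and 3961 and 2914 in quadriceps (-3.27 ± 0.58, adjusted p = 0.0010). Pla2g7, a secreted phospholipase that inactivates platelet-activating factor, had signals of 164 and 109 in soleus, the second under the floor, and 1111 to 1807 in the fast muscles (-3.42 ± 0.35, adjusted p = 6.7e-07). Gdap1, a protein of the outer mitochondrial membrane, had signals of 211 and 39.1 in soleus, with the second again under the floor, and 989.5 to 1704 in the fast muscles (-2.94 ± 0.41, adjusted p = 5.9e-05). With the floor at the 5th percentile of signals Gdap1 was at -3.74 and Mstn stayed at -3.55, so the order of the lowest genes depends on the floor. The rule for the 12 lowest genes required that no soleus array overlap a fast array, so the non-overlap of these 4 genes is no separate result. The others of the 12 were Mstn, Actn3, Gpd2 and Phkg1, described with their lists, Tlcd4 (-2.93 ± 0.23, adjusted p = 7.8e-09), the tetraspanin Tspan8 (-2.79 ± 0.43, 0.00022), the mitotic kinase Aurka (-2.35 ± 0.38, 0.00039) and Fam189b (-2.33 ± 0.52, 0.011). Of the 12 genes Fam189b alone lost its call with 1 of the 8 arrays out, without soleus sample 1 (adjusted p = 0.19) or soleus sample 2 (0.15).

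Some proteins that sense load at the Z-disc were higher in soleus. Of 15 tested genes of stretch and the Z-disc 3 were higher and 1 lower (1.18% and 1.26% of all probe sets tested), or 4 and 2 after quantile normalization. Ankrd2, an ankyrin repeat protein induced by stretch, had signals of 41189 and 47109 in soleus, 3819.8 and 3242 in EDL, 6582 and 5257 in gastrocnemius and 8247 and 12676 in quadriceps. Soleus was highest and EDL lowest without overlap (2.89 ± 0.29, adjusted p = 6.7e-07). Csrp3, the muscle LIM protein of the Z-disc, had signals of 22735 and 29482 in soleus and 2973 to 5459 in the fast muscles (2.65 ± 0.38, adjusted p = 9.0e-05). Xirp1, an actin-binding protein of the attachments of the fibre, had signals of 15606 and 9766 in soleus and 4112 to 6724 in the fast muscles (1.20 ± 0.27, adjusted p = 0.010, and 0.42 without soleus sample 1). Pdlim1, a PDZ and LIM protein that binds α-actinin and is not in the list, had signals of 23742 and 24918 in soleus and 2285 to 4285 in the fast muscles (2.88 ± 0.22, adjusted p = 3.2e-09). A second Pdlim1 probe set, 161348_r_at, gave -0.26 ± 0.34 with overlapping groups (adjusted p = 0.93), so the probe sets of this gene disagree. Myom2, the M-band protein of fast fibres, was lower, with signals of 4903 and 4926 in soleus and 9392 to 15163 in the fast muscles (-1.28 ± 0.27, adjusted p = 0.0063, and 0.12 and 0.14 without soleus samples 1 and 2).

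Among the 12 highest genes, 4 lay outside the contractile and Z-disc groups. Npr3, the receptor that clears natriuretic peptides, had signals of 3760.1 and 3059 in soleus, 599.6 and 472 in EDL, 393 and 393 in gastrocnemius and 381 and 224 in quadriceps (3.11 ± 0.47, adjusted p = 0.00014). A further probe set gave 2.36 ± 0.38, and both soleus arrays exceeded all fast arrays on each. B3galt2, a galactosyltransferase, had signals of 882 and 864 in soleus, while 5 of the 6 fast arrays were under the floor and the sixth was at 129 (2.86 ± 0.55, adjusted p = 0.0025). The call was lost without soleus sample 1 (adjusted p = 0.073) or sample 2 (0.071). Hspa1a, an inducible heat shock protein of the HSP70 family, had signals of 6320.0 and 5974 in soleus and 813 to 1297 in the fast muscles (2.70 ± 0.37, adjusted p = 5.0e-05). Its near copy Hspa1b had signals of 2872 and 2669 in soleus and 514 to 704 in the fast muscles (2.18 ± 0.31, adjusted p = 7.5e-05), and probes may not separate the copies. Of 27 tested heat shock and antioxidant genes 3 were higher, against 1.18% of all probe sets tested. They were these copies and the metallothionein Mt1 (1.09 ± 0.29, adjusted p = 0.046), whose call was lost without any array but EDL sample 1. None was lower by limma, with 1 lower at an unadjusted p under 0.05. The fourth is Pdlim1, given above. Hspa1a and Hspa1b are also in a list of 22 tested immediate early genes, which dissection can induce. They are the 2 higher calls of that list, and Nr4a1 (-1.72 ± 0.26) is its 1 lower call. The summed signal of the 24 on the array was 60359 to 63298 in soleus against 47012 to 55107 in the fast muscles. That sum includes Hspa1a and Hspa1b themselves. The part of dissection in these genes was not tested.

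**Figure D2:**
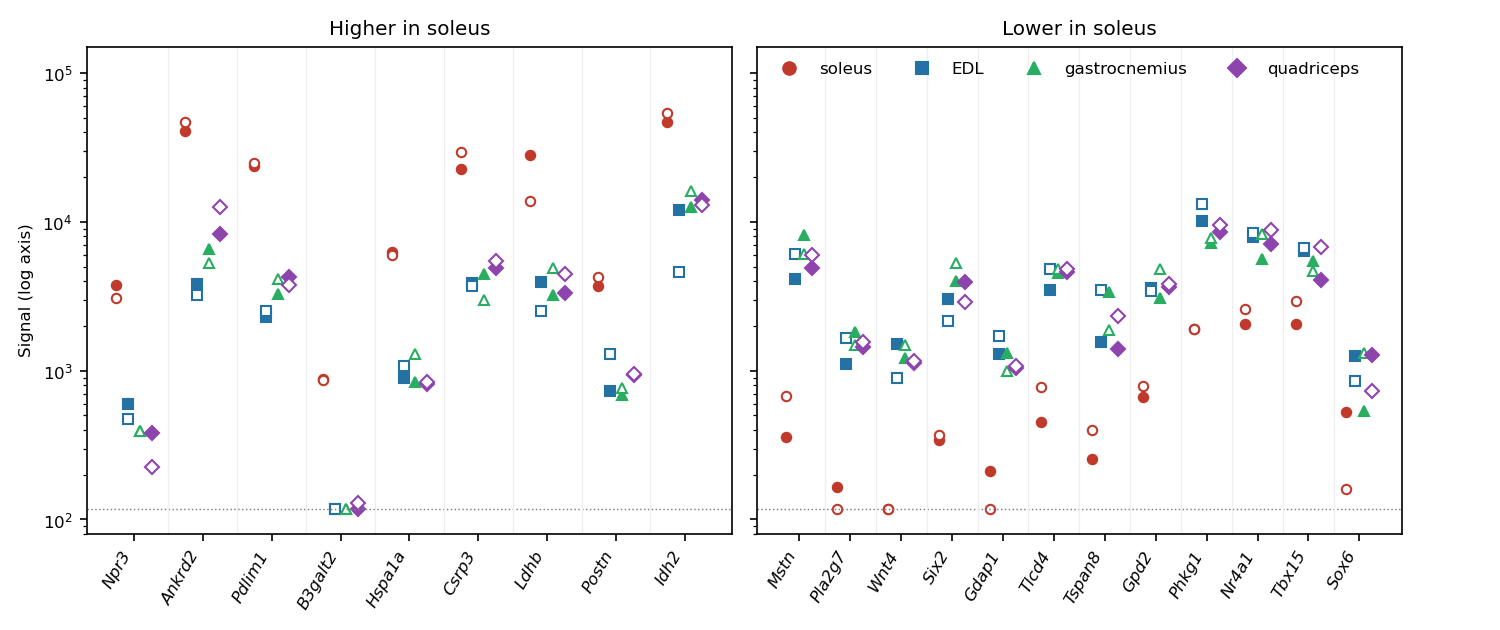
Signal (log axis) in the 8 C57BL10 arrays of 9 genes higher and 12 genes lower in soleus that are not filament proteins, with filled symbols for sample 1, open symbols for sample 2 and a dotted line at the floor of 118.4. The soleus symbols lie apart from all fast arrays for each gene, with Sox6 the closest. Those among the 12 highest and 12 lowest genes were taken only where the groups did not overlap.

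Genes of fat use mostly had values above 0. Of 30 tested genes of fatty acid uptake and oxidation 27 had a value above 0, which was so for 52.9% of all probe sets tested. The median was 0.85, and 3 passed as higher, against 1.18% of all tested. The count of passing genes was 9 with the scanning period as a block, 12 without the 2 arrays of the series that correlate least with the rest, and 7 after quantile normalization, with none lower in any of these. Fabp3, the fatty acid binding protein of heart and muscle, had signals of 54148 and 63006 in soleus, 18658 and 15465 in EDL, 24383 and 20047 in gastrocnemius and 27539 and 36708 in quadriceps (1.35 ± 0.30, adjusted p = 0.011, and 0.11 and 0.28 without soleus samples 1 and 2). Lpl, the lipase that frees fatty acids from lipoproteins, had signals of 44336 and 61213 in soleus and 13619 to 29287 in the fast muscles (1.44 ± 0.38, adjusted p = 0.043), and its second probe set gave 1.93 ± 0.36. Cd36, the fatty acid transporter of the cell surface, had signals of 3937 and 5315 in soleus and 1284 to 3064 in the fast muscles (1.40 ± 0.38, adjusted p = 0.046). The calls of Lpl and Cd36 were lost without any array but EDL sample 2, with adjusted p up to 0.57. The enzymes of β-oxidation did not pass singly, among them Acadm (0.95 ± 0.36), Acadl (0.98 ± 0.31), Hadh (1.00 ± 0.28, adjusted p = 0.059), Decr1 (1.05 ± 0.32) and the electron carrier Etfdh (1.03 ± 0.30). Both soleus arrays exceeded all fast arrays for these 5, which were chosen from the list, and for 19 of its 30 tested genes. That was so for 8.99% of all probe sets tested.

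In the citric acid cycle and its control 3 of 21 tested genes were higher, against 1.18% of all probe sets tested. None was lower, also at an unadjusted p under 0.05. The median was 0.20, and after quantile normalization 2 were higher. Idh2, the mitochondrial isocitrate dehydrogenase that uses NADP, had signals of 47251 and 53760.4 in soleus, 11949.9 and 4599 in EDL, 12613 and 16111 in gastrocnemius and 14018 and 13042 in quadriceps (2.16 ± 0.28, adjusted p = 2.4e-05), and passed with any array left out. Pdk4 and Pdk1, kinases that shut off pyruvate dehydrogenase, were also higher. Pdk4 had signals of 23841 and 29133 in soleus and 2276 to 11106 in the fast muscles (1.96 ± 0.43, adjusted p = 0.0089, and 0.10 and 0.24 without soleus samples 1 and 2). Pdk1 had signals of 3808 and 3384 in soleus and 1428 to 1882 in the fast muscles (1.14 ± 0.26, adjusted p = 0.014, and 0.25 and 0.15), and its adjusted p was 0.089 after quantile normalization. Of the 21 genes 17 had a value above 0 and 4 below, while 52.9% of all probe sets tested had a value above 0. Among the 18 that did not pass were citrate synthase Cs at 0.20 ± 0.27 and Idh3a, a subunit of the isocitrate dehydrogenase that uses NAD, at -0.42 ± 0.26, the lowest value of the list.

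Subunits of oxidative phosphorylation gave no call. Of 52 tested none passed by limma, 2 were higher at an unadjusted p under 0.05, 45 had a value above 0 (52.9% of all probe sets tested did) and the median was 0.29, with a highest value of 0.70 (Cox6a1, a subunit of cytochrome oxidase). For 10 of the 52 both soleus arrays lay above all fast arrays, which was so for 8.99% of all tested, and for none did they lie below. Mb, the oxygen store myoglobin, had signals of 84529.8 and 126590.3 in soleus and 40606 to 60389 in the fast muscles without overlap and did not pass (1.09 ± 0.32, adjusted p = 0.079). Ckm, the muscle creatine kinase, was below all fast arrays without passing (-1.01 ± 0.34, adjusted p = 0.15). Of the 10 tested genes of this list none passed by limma, with 4 higher and 2 lower at an unadjusted p under 0.05, and after quantile normalization 2 were higher and 1 lower.

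Genes of glycolysis and glycogen breakdown were mainly on the other side. Of 27 tested 6 were lower in soleus and 1 higher (1.26% and 1.18% of all probe sets tested), and the median was -0.50. After quantile normalization 13 were lower and 1 higher. Phkg1, the catalytic subunit of the muscle phosphorylase kinase that starts glycogen breakdown, had signals of 1903 and 1921 in soleus, 10095 and 13204 in EDL, 7240.1 and 7840.4 in gastrocnemius and 8566 and 9522 in quadriceps (-2.27 ± 0.25, adjusted p = 2.4e-06). Both enzymes of the glycerol phosphate shuttle, which carries reducing equivalents of glycolysis into mitochondria, were lower by their brightest probe sets. A second Gpd1 probe set was at -0.82 ± 0.44 without overlap of the groups and did not pass (adjusted p = 0.57). Gpd2, the mitochondrial enzyme of the shuttle, had signals of 669 and 787 in soleus and 3091 to 4812 in the fast muscles (-2.35 ± 0.25, adjusted p = 1.4e-06). Gpd1, its cytosolic enzyme, had signals of 5187 and 2652 in soleus and 11346 to 22803 in the fast muscles (-2.09 ± 0.39, adjusted p = 0.0019, and 0.23 without soleus sample 2). The other 3 lower genes, outside the rule for named genes, were Phka1, the muscle regulatory subunit of the same kinase (-2.00 ± 0.44, adjusted p = 0.0089, and 0.059 and 0.33 without soleus samples 1 and 2), the muscle fructose bisphosphatase Fbp2 (-1.37 ± 0.31, 0.013, and 0.069 and 0.42) and phosphoglucomutase Pgm1 (-1.24 ± 0.27, 0.010, and 0.16 and 0.19). Ldhb, the heart form of lactate dehydrogenase, was higher, with signals of 28069 and 13864 in soleus, 3921 and 2528 in EDL, 3207 and 4898 in gastrocnemius and 3339 and 4482 in quadriceps (2.44 ± 0.33, adjusted p = 4.7e-05). Ldha, the muscle form, was below all fast arrays without passing (-0.87 ± 0.39, adjusted p = 0.40). Hk2, the hexokinase of muscle, and Slc2a4, the insulin-responsive glucose transporter, were at -0.04 ± 0.29 and -0.00 ± 0.37.

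Of 12 tested calcium handling genes outside the contractile lists 3 were lower and 1 was higher (1.26% and 1.18% of all probe sets tested). Cacng1, a subunit of the calcium channel that senses voltage in the fibre membrane, had signals of 5321 and 5138 in soleus and 9767 to 17574 in the fast muscles (-1.44 ± 0.23, adjusted p = 0.00029). Ppp3cb, a catalytic subunit of calcineurin, was lower, with signals of 2037 and 1613 in soleus and 3765 to 6484 in the fast muscles (-1.42 ± 0.35, adjusted p = 0.025), a call lost with any of 5 arrays left out (adjusted p from 0.056 to 0.43). Rcan1, a regulator and target of calcineurin, was higher, with signals of 12603 and 9752 in soleus and 2972 to 5619.7 in the fast muscles (1.31 ± 0.28, adjusted p = 0.0081, and 0.25 and 0.062 without soleus samples 1 and 2). Slc8a1, the sodium-calcium exchanger, was lower, with signals of 418 and 543 in soleus and 1029 to 2199 in the fast muscles (-1.36 ± 0.31, adjusted p = 0.013). That call was lost without soleus sample 1 or soleus sample 2 and with the 8 arrays alone (adjusted p = 0.053). Its other probe sets fell under the filter, with 93168_at under the floor in all 8 arrays and 99525_at overlapping between the groups. Of 12 tested genes of the nerve contact 1 passed, Ache, the acetylcholinesterase of the synapse, with signals of 996 and 164 in soleus and 1069.5 to 3800.3 in the fast muscles (-2.25 ± 0.51, adjusted p = 0.011). Soleus sample 1 lay just under the lowest fast array, and the adjusted p was 0.88 without soleus sample 2. The amino acid transporter Slc38a4 was lower (-1.15 ± 0.31, adjusted p = 0.046), a call lost without any array but gastrocnemius sample 1 (adjusted p up to 0.71). Dystrophin-associated proteins gave no call among 12 by limma, with 2 higher and 1 lower at an unadjusted p under 0.05.

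Of 32 tested genes of the extracellular matrix 2 were higher in soleus, against 1.18% of all probe sets tested. Postn, the matrix protein periostin, had signals of 3731 and 4265 in soleus, 731 and 1298 in EDL, 687 and 764 in gastrocnemius and 938 and 946 in quadriceps (2.19 ± 0.26, adjusted p = 4.2e-06), and passed with any array left out. Mgp, an inhibitor of calcification, had signals of 8832 and 8678 in soleus and 3485 to 5269 in the fast muscles (1.13 ± 0.23, adjusted p = 0.0039, and 0.10 and 0.096 without soleus samples 1 and 2). The collagens and other members lay between -0.74 and 0.88.

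Markers of other cell types were counted in the same way. Of all probe sets tested 52.9% had a value above 0, 1.18% were called higher and 1.26% lower. All 8 tested adipocyte markers had a value above 0 and 2 passed (3 after quantile normalization), and the summed signal of the 10 on the array was 148552 to 178300 in soleus against 39962 to 112971 in the fast muscles. Adipoq, the fat cell hormone adiponectin, had signals of 10729.9 and 10813 in soleus, 2147 and 2993 in EDL, 3119 and 2969.7 in gastrocnemius and 7234 and 7337 in quadriceps (1.49 ± 0.24, adjusted p = 0.00039), so that quadriceps lay nearest to soleus. Lpl is in both this list and that of fat use, and Cidec and Pparg fell under the filter. The part of fat cells in the genes of fat use was not tested. All 16 tested markers of endothelium had a value above 0 with a median of 0.41 and a summed signal of 28505 to 32766 in soleus against 19720.3 to 25080.5, and Eng, the receptor endoglin, passed (0.99 ± 0.23, adjusted p = 0.016, lost without any of 4 arrays with adjusted p from 0.052 to 0.32). All 8 tested markers of smooth muscle and all 3 of erythroid cells had a value above 0, and none passed by limma or at an unadjusted p under 0.05. Of the liver markers 1 of 14 passed, with 5 values above 0 and 7 below and a summed signal, over the 18 on the array, of 16711 to 18171 in soleus against 7557 to 12272. It was haptoglobin (Hp), which fat cells make too, with signals of 6197 and 5228 in soleus and 1561 to 2913 in the fast muscles (1.48 ± 0.27, adjusted p = 0.0015, and 0.086 without soleus sample 1). Apoh, Fgb, Fgg, Ahsg and Ambp were at the floor in all 8 arrays, and Alb had signals of 187 and 73.5 in soleus and 66.4 to 367 in the fast muscles. None of the 15 macrophage markers passed by limma, nor did any at an unadjusted p under 0.05. Of 8 tested lymphocyte markers 4 had a value above 0 and 4 below, with a median of -0.11, and 1 passed. This was Ighm, the heavy chain of immunoglobulin M, which was lower (-1.25 ± 0.24, adjusted p = 0.0027, and 0.12 without soleus sample 1) although the groups overlap: signals were 1621 and 1922 in soleus and 1379 and 1354 in EDL, against 4629 and 6221 in gastrocnemius and 9327 and 10756 in quadriceps.

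**Figure D3:**
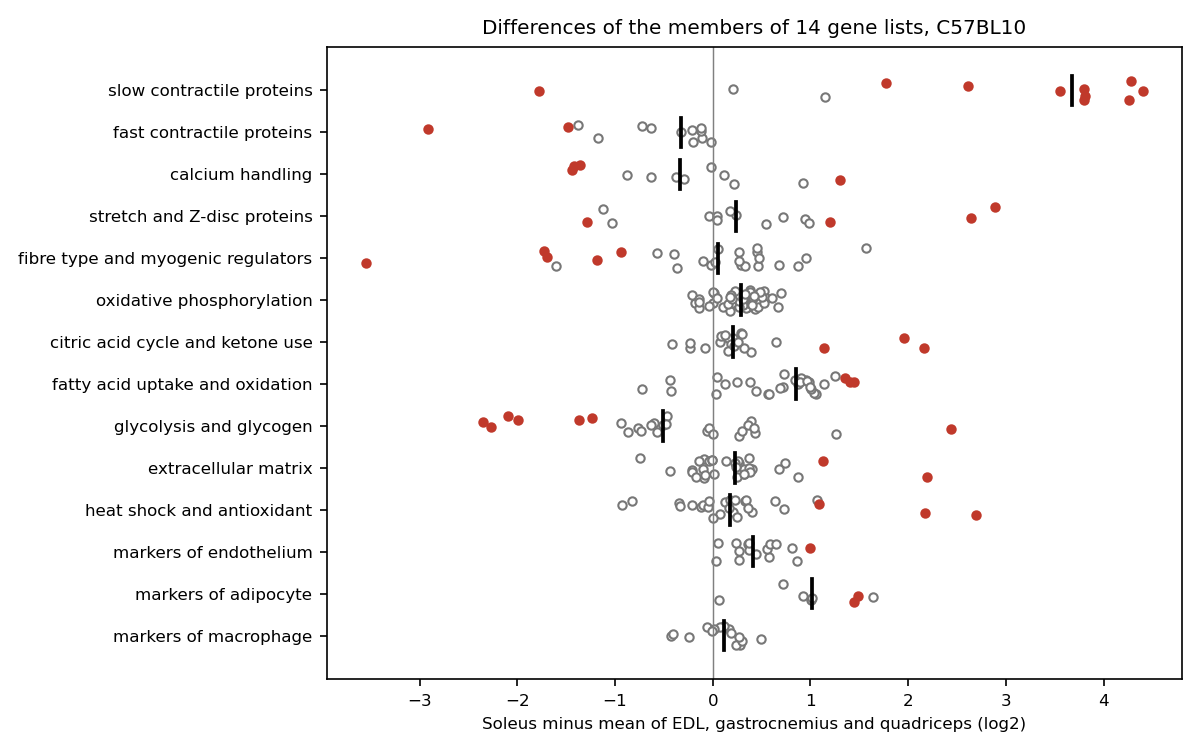
Difference between soleus and the mean of the fast muscles (log2) for each tested gene of 14 lists, with filled points for genes past the adjusted p of 0.05, open points for the rest and a bar at the median of the list. The slow contractile list has its median at 3.68 and the fast list at -0.33, while the 52 genes of oxidative phosphorylation hold together near 0.29 without a filled point.

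Each fast muscle was also compared with soleus singly, and these comparisons share the soleus arrays. Against EDL 126 probe sets passed (1.69%), 71 higher (0.953%) and 55 lower (0.738%). Against gastrocnemius 92 passed (1.23%), 48 higher (0.644%) and 44 lower (0.59%). Against quadriceps 109 passed (1.46%), 47 higher (0.631%) and 62 lower (0.832%). After quantile normalization the splits were 63 higher and 69 lower for EDL, 45 and 62 for gastrocnemius and 33 and 67 for quadriceps. Some of the leading lower genes had like values against each fast muscle: Mstn was at -3.35, -3.85 and -3.45 against EDL, gastrocnemius and quadriceps, Wnt4 at -3.30, -3.51 and -3.27, and Gpd2 at -2.27, -2.41 and -2.37. Six2 varied more, at -2.85, -3.69 and -3.26. Hspa1a, among the higher genes, was at 2.65, 2.55 and 2.89. Ankrd2 was at 3.65, 2.90 and 2.11, and EDL did not pass against gastrocnemius and quadriceps (-1.14 ± 0.31, adjusted p = 0.24).

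**Figure D4:**
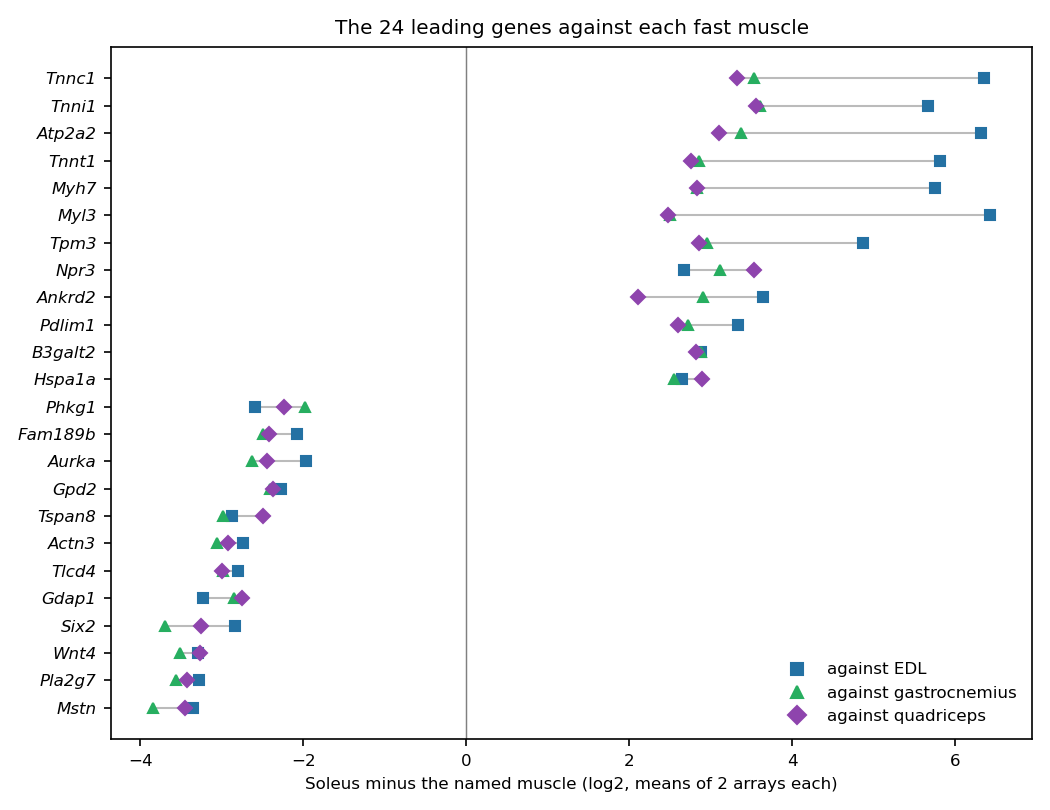
Soleus minus EDL (squares), gastrocnemius (triangles) and quadriceps (diamonds) on the log2 scale for the 12 highest and 12 lowest genes, with a line from the lowest to the highest value of a gene. For the 7 slow filament and calcium pump genes the EDL square stands at 4.87 to 6.43, beyond the other muscles. For the 12 lower genes the 3 symbols lie closer together than for those 7, with Six2 the widest of the 12.

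A contrast of the same kind was made in the dystrophin mutants, between arrays whose levels do not enter the C57BL10 differences, though both contrasts share 1 estimate of the spread. It set 4 soleus arrays of mdx and mdx5cv against 6 of gastrocnemius and quadriceps and left out EDL, since earlier results had shown the EDL arrays of mdx5cv apart from those of mdx in slow fibre genes. A pair of mdx columns and a pair of mdx5cv columns were identical within the pair, each a gastrocnemius and a quadriceps sample, and only the copy named quadriceps was kept, so the muscle of these arrays is uncertain. In mutants 140 probe sets passed (1.88%), 83 higher in soleus (1.11%) and 57 lower (0.765%). After quantile normalization they were 76 and 73. The count was 74 without mdx soleus sample 2, whose 3' to 5' ratio of Gapdh was 3.44, or 86 without mdx5cv soleus sample 2. One of the 6 fast arrays, mdx5cv quadriceps sample 2, stood apart from the series, with a median signal of 887 and a median Spearman correlation of 0.764, and without it the count was 139. Without that array and C57BL10 TA sample 2 the count was 214. Of the 182 probe sets 177 had the same direction in mutants (97.3%, against 62.6% of all tested), and 91 passed in mutants in the same direction, 50.0% of the C57BL10 calls and 65.0% of the mutant calls.

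Slow filament genes were far apart in mutants as well. Tnnc1 had signals of 38968 and 51296 in mdx soleus, 46297 and 48661 in mdx5cv soleus and 624 to 3906 in mutant gastrocnemius and quadriceps (4.34 ± 0.37, adjusted p = 2.7e-08), and 3.43 in C57BL10 against the same muscles. Myh7 was at 3.57 ± 0.22 in mutants and 2.83 in C57BL10, Tnni1 at 2.58 ± 0.22 and 3.58, and Ankrd2 at 2.47 ± 0.24 and 2.51. The difference of Mstn was -1.66 ± 0.24 (adjusted p = 0.00014) in mutants and -3.65 in C57BL10, with signals of 1784 and 2213 in mdx soleus and 415 and 406 in mdx5cv soleus, so that the mutant soleus pairs did not overlap each other, and 2137 to 4062 in the fast muscles. The change between strains was 1.99 ± 0.40 (adjusted p = 0.070) for Mstn, 1.01 ± 0.30 (0.65) for Tbx15 and 0.91 ± 0.60 (1.00) for Tnnc1, none of which passed. Actn3 was at -1.15 ± 0.29 (adjusted p = 0.040) and -3.00, with signals of 51049 and 84326 in mdx soleus, within the range of 50958 to 156044 of the mutant fast arrays, and of 22363 and 17679.8 in mdx5cv soleus, below it. Tbx15 was at -0.07 ± 0.18 in mutants (adjusted p = 0.95) against -1.07, with signals of 4919 and 5004 in mdx soleus and 1984 and 2152 in mdx5cv soleus, above and below all fast arrays (2858 to 4541). The difference between mutants and C57BL10 itself passed for 4 probe sets (0.0537%), 1 of them higher (0.0134%) and 3 lower (0.0403%), and after quantile normalization for 5 higher and 1 lower. Postn and Pla2g7 are among the 4. The value of Postn in mutants was 0.09 ± 0.21, with 8930.2 to 17556 in soleus and 7423 to 15582 in the fast muscles, all above every C57BL10 array, and the change of the soleus difference was -2.18 ± 0.34 (adjusted p = 0.0061). For Pla2g7 the mutant value was -0.87 ± 0.29, with 446 and 669 in mdx soleus, 402 and 565 in mdx5cv soleus and 654 to 1187 in the fast muscles, and the change was 2.62 ± 0.47 (adjusted p = 0.020). Without C57BL10 soleus sample 2 neither passed, with an adjusted p of 0.11 for Postn and 0.40 for Pla2g7. The call of Pla2g7 was also lost when any of 6 other arrays was left out (adjusted p from 0.059 to 0.098), with the floor at the 5th percentile (0.11) and without the filter on low signals (0.056).

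**Figure D5:**
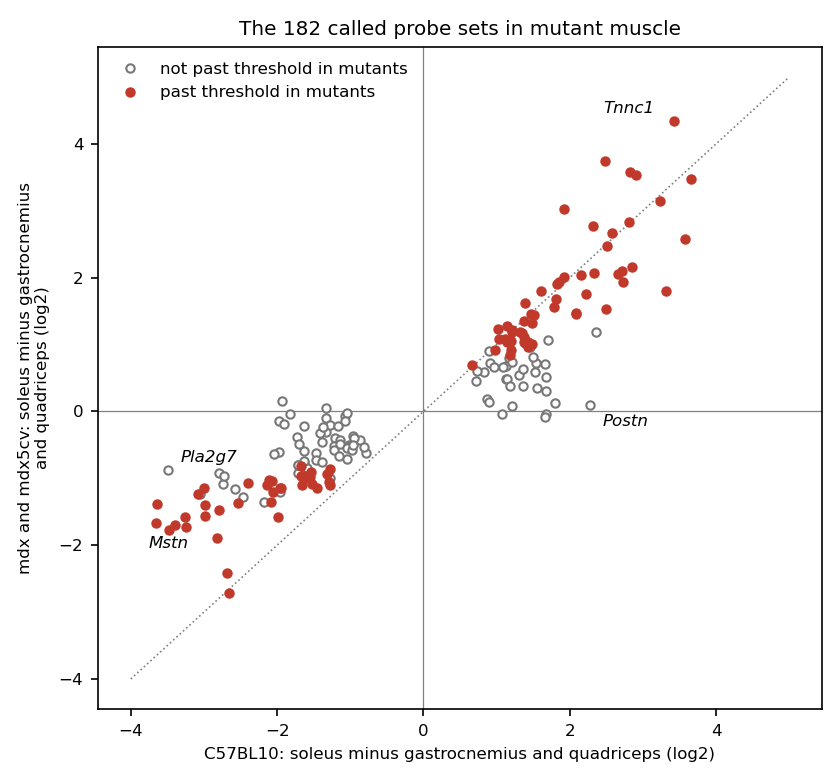
The 182 called probe sets, with soleus minus the mean of gastrocnemius and quadriceps (log2) in C57BL10 on the horizontal axis and in mdx and mdx5cv on the vertical axis, filled where the mutant comparison passed and with a dotted line of equal values. Of the points 177 have the same sign on both axes, and Postn lies near 0 in mutants.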

How the data were processed

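The 36 samples were hybridised singly to 1-colour arrays, and the authors deposited 1 signal intensity per probe set and sample with the algorithm not given in the sources used here. The trimmed mean of every column lies between 1500.4 and 1501.3, so the deposited intensities had been scaled to a common level. Precision is limited by the 2 arrays per group. Each of 2 pairs of mutant columns was identical and was used once, which left 34 arrays. The 66 control probe sets were left out. Signals were floored at the 20th percentile (118.4), taken to log2 and tested where the mean over all arrays reached the 40th percentile, which 7453 of 12422 probe sets did.

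One limma fit (version 3.58.1 in R 4.3.3) with a mean for each of 18 groups gave all contrasts, with empirical Bayes moderation of the variances along a trend in mean signal and Benjamini-Hochberg adjustment over all tested probe sets. Every adjusted p is from limma, also where a sentence does not repeat the name. Of the 12488 probe sets 10855 had 1 gene symbol in the platform annotation, 396 several and 1237 none. A gene was represented by its probe set of highest mean signal. Probe sets with a letter before the ending may bind related transcripts.

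The genes named are Dmd, the 12 highest and 12 lowest calls without overlap of groups, up to 4 calls per list with the largest difference, and all contractile members. The members and the gene lists were chosen with earlier results of these data known. Deviations of same-numbered samples from their group means had r from -0.35 to 0.23 between muscles. Gastrocnemius sample 1 was scanned in another period than sample 1 of the other muscles, and arrays of the same period had r from -0.080 to 0.35. With 2 arrays per group these values cannot show whether sample numbers pair the muscles, and no pairing was used in the main fit. The EDL contrast and the fit of 8 arrays with the scanning period as a block were chosen after seeing the data. The statistics were tested on simulated data.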

Additional observations from a re-analysis of the deposited data

Results flagged for a closer look

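The soleus difference itself differed between the dystrophin mutants and C57BL10 for a pair of named genes, both measured against gastrocnemius and quadriceps. For Postn the difference was 2.27 in C57BL10 and 0.09 ± 0.21 in mutants, a change of -2.18 ± 0.34 (limma adjusted p = 0.0061). For Pla2g7 it was -3.50 in C57BL10 and -0.87 ± 0.29 in mutants, a change of 2.62 ± 0.47 (limma adjusted p = 0.020). Without C57BL10 soleus sample 2 the changes were -2.09 and 2.39, with adjusted p of 0.11 and 0.40. After quantile normalization the adjusted p was 0.056 for Postn and 0.26 for Pla2g7. For Pla2g7, which was under the floor in C57BL10 soleus sample 2, it was 0.11 with the floor at the 5th percentile and 0.056 without the filter on low signals. The other 2 probe sets that passed were Mmp12, a macrophage elastase, with -3.86 ± 0.62 (adjusted p = 0.0061), and 1 without a gene symbol. In the mutant contrast none of the 15 tested macrophage markers had a value above 0, and their median was -0.79 against -0.0078 over all tested genes. Of these markers 4 were lower in soleus, against 0.765% of all probe sets tested. Their part in the value of Mmp12 was not tested.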

How the results depend on the processing

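The 182 calls of the joint comparison became 280 with the 8 arrays alone, 350 without the 2 low-correlation arrays, 329 with the scanning period as a block, 455 with the scanning day as a random block, 466 with array weights, 377 with the 8 arrays and the period together and 61 against a minimum fold of 1.5. In the same order the counts against EDL were 126 at first, then for all but the 8 arrays 240, 221, 278, 283, 226 and 40. Against gastrocnemius they were 139, 206, 188, 254, 340, 202 and 43 from 92, and against quadriceps, again without the 8 arrays alone, 212, 199, 253, 324, 215 and 37 from 109. In mutants the 140 calls became 214 without the low-correlation arrays, 229 with the period, 318 with the scanning day, 228 with the identical columns kept and 29 against the minimum fold. The 4 calls of the difference between strains became 12, 11, 11 and 16 (array weights) in those first settings, 2 with 1 probe set per gene and 0 against the minimum fold in limma (50 at an unadjusted p under 0.05). With 1 array left out the counts ran from 75 to 159 (joint), 50 to 122 (EDL), 43 to 88 (gastrocnemius), 49 to 103 (quadriceps), 74 to 185 (mutants) and 0 to 4 (difference between strains, 0 without C57BL10 soleus sample 2, with 196 at an unadjusted p under 0.05). The cause of these changes was not tested, and fewer samples enter the fits with arrays left out.

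With the sample number as a replicate block the joint count was 202, with 101 higher and 101 lower, and the counts were 148, 104, 123, 161 and 4 for the other comparisons, although the labels do not say whether the numbers pair the samples. No called named gene of 56 changed direction. Over the settings that keep all 8 arrays they stayed past the threshold in 793 of their values and missed it in 46, and with 1 array out in 371 and 77.

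With 1 array left out, values of uncalled fast genes crossed 0. They ran from -0.45 to 0.21 for Myh1, from -0.65 to 0.23 for Myl1, from -0.45 to 0.050 for Tnnt3, from -0.47 to 0.23 for Tnnc2, from -0.11 to 0.085 for Tpm1 and from -0.27 to 0.057 for Atp2a1. Signals under the floor of 118.4 have no order, and differences that involve them depend on it.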

Other observations

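Other genes passed that belong to none of the lists, and those given here were chosen after their values were seen. Among the higher ones were Nnt, the transhydrogenase of the inner mitochondrial membrane that makes NADPH (2.22 ± 0.29, limma adjusted p = 2.4e-05), with signals of 22239 and 27719 in soleus and 4441 to 5879.5 in the fast muscles. Ift81, a protein of transport in cilia, had 3733 and 3546 against 504 to 757 (2.54 ± 0.34, adjusted p = 3.7e-05). Rrad, a small GTPase that restrains calcium channels, had 1748 and 1568 against 362 to 587 (1.82 ± 0.32, adjusted p = 0.00083). Aox1, an aldehyde oxidase, was at 1.93 ± 0.31 (adjusted p = 0.00033, and 0.15 after quantile normalization), and Ephx1, an epoxide hydrolase, at 1.86 ± 0.31 (adjusted p = 0.00045).

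Among the lower ones, Mybph, a relative of the myosin binding proteins, had signals of 511 and 603 in soleus and 1411 to 4962 in the fast muscles (-2.23 ± 0.33, adjusted p = 0.00011). Stbd1, which binds glycogen and carries it to lysosomes, had 903 and 726 against 1659 to 2517 (-1.39 ± 0.20, adjusted p = 6.6e-05). Slc37a4, the glucose 6-phosphate transporter of the endoplasmic reticulum, had 2135 and 1934 against 5212 to 10835 (-1.83 ± 0.34, adjusted p = 0.0017, and 0.072 without soleus sample 2). No soleus array of these 8 genes overlapped a fast array, which was so for 180 of the 182 called probe sets and 17.2% of all tested. Non-overlap therefore adds little to their calls. Apart from Slc37a4 the 8 genes passed with any of the 8 arrays left out.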
